A study of Mus musculus with 6 samples.

Results

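The genes that control the entry of male germ cells into meiosis were examined in adult testis, together with the enzymes and receptors of the retinoic acid signal that acts on them. The set held 10 genes, chosen by symbol: the meiotic entry factors Stra8 and Gm4969, the spermatogonial transcription factors Sohlh1, Sohlh2 and Dmrt1, the retinoic acid receptors Rara and Rarg, and the enzymes Aldh1a1, Aldh1a2 and Cyp26b1. Gm4969 is the GENCODE symbol of the gene for MEIOSIN, which RefSeq lists as Bhmg1. All 10 were found among the 55536 genes counted, and all 10 passed the filter on low counts that left 21465 genes for testing.

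The study asked how male germ cells fare without SEL1L, the adaptor of the HRD1 ubiquitin ligase in endoplasmic reticulum-associated degradation. RNA was sequenced from whole testes of 7-week-old mice, 3 of genotype KOStra8 and 3 littermates of genotype HETStra8, with 1 library per mouse. KOStra8 mice were Sel1L flox/Δ;Stra8-Cre, so they carried a deleted Sel1L allele, a floxed allele and a Cre recombinase driven by the male germ cell promoter of Stra8. HETStra8 mice were heterozygous for Sel1L. The record gives them as Sel1L flox/Δ, whereas the study's text combines Sel1L flox/+;Stra8-Cre with Sel1L flox/Δ under this name, and no genotype was given for single mice, so it is not known which HETStra8 mice carried the Cre. The study describes SEL1L protein as still present in the spermatogonia and Sertoli cells of KOStra8 testes, which limits the model for the cells in which several of these genes are active. Stra8 is thus a gene of interest and also the gene whose promoter drives the deletion, and the Cre transcript was not among the genes counted.

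Retinoic acid is made from retinol in the testis by aldehyde dehydrogenases and is cleared by cytochromes of the CYP26 family. It binds nuclear receptors that pair with retinoid X receptors and switches on Stra8 in differentiating spermatogonia and again in preleptotene spermatocytes. STRA8 then acts with MEIOSIN on the promoters of meiotic genes, while DMRT1 holds back meiosis in spermatogonia and SOHLH1 and SOHLH2 promote spermatogonial differentiation.

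Promoter sequence was read from RefSeq (GRCm38.p6) in windows from 250 bases before to 50 bases after each annotated start. Windows were found for 9 of the 10 genes, 14 windows in all, and Dmrt1 had none. Stretches of 3 windows are shown, because they carry elements through which the factors of this pathway are known to act: a pair of hexamers of the retinoic acid receptor type at Stra8, the motif CNCCTCAG known from promoters bound by STRA8 at Gm4969, and E-boxes (CACGTG), the sites of basic helix-loop-helix factors, at Sohlh1 and Gm4969. Capitals mark these matches.
Stra8, chr6:34920738-34920767, plus strand: cctggatgGGGTGAaaAGGTCAtcttgctc
Gm4969, chr7:19118369-19118528, minus strand: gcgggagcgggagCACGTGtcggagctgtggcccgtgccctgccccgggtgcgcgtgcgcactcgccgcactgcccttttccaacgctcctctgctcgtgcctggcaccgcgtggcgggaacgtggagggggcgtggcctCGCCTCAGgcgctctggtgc
Sohlh1, chr2:25847429-25847488, minus strand: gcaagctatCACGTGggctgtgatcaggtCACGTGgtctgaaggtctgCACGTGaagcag

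The hexamers searched were the 8 that begin with AG or GG, go on with GT or TT and end with CA or GA, in pairs of the same orientation spaced by 1, 2 or 5 bases, on both strands. The Stra8 pair was spaced by 2 bases and began at position -202 from the RefSeq start. In a longer GENCODE transcript of Stra8 this stretch belongs to the 5′ untranslated region. Such a pair was found in 0.472% of all 32851 windows, and no window of the other 8 genes read had one. Pairs spaced by 1 base (0.609% of windows) or by 5 bases (0.323%) were found in none of the 14 windows. CNCCTCAG, present in 7.94% of all windows on either strand, began at position -44 of Gm4969, at position -22 of Sohlh2 and, on the opposite strand, at position -177 of a window of Aldh1a1. CACGTG, present in 7.15% of windows, was found 3 times at Sohlh1 (positions -231, -211 and -192), a number of matches reached in 0.0883% of windows. It was found at position -171 of Gm4969 and at a single site shared by a pair of overlapping Rara windows. No match overlapped a match of another motif. A match describes the letters only, and binding was not measured.

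Library totals lay between 28875108 and 36526695 counts. Sel1l itself checked the labels: it was 46.4 ± 3.59 CPM (SD, n = 3) in HETStra8 and 22.2 ± 1.97 in KOStra8, with every KOStra8 mouse below every HETStra8 mouse (log2 fold change -1.07, adjusted p = 6.10e-04). The summed level of the 10 markers of elongating spermatids was 15275 to 17100 CPM per mouse, against 3.06 to 12.4 CPM for markers of epididymis and 1.84 to 4.93 CPM for those of seminal vesicle. Markers of adipose tissue were not near 0, with a summed level of 450 to 532 CPM per mouse. Which cells this RNA came from was not tested. Throughout, CPM are counts scaled to library size, with TMM normalization for differences in composition between libraries, and fold changes are KOStra8 over HETStra8 from edgeR's quasi-likelihood test with Benjamini-Hochberg adjustment over all genes tested.

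None of the 10 genes passed the study's cutoffs of an adjusted p below 0.01 and a change over 2-fold, which 2 of all tested genes (0.00932%) passed in this fit. The study reported many more genes at these cutoffs, from a comparison whose software its text does not name. Its count was thus not reproduced here. By a wider rule, an unadjusted p below 0.05, 1 of the 10 was lower in KOStra8 (Aldh1a1) and none was higher, beside 5.12% of all tested genes lower and 7.13% higher. The KOStra8 mice lay entirely above or below the HETStra8 mice in none of the 10, beside 9.33% of all tested genes with KOStra8 above and 8.43% below. The median log2 fold change of the 10 genes was -0.0969 and 1 of 10 was above 0, against a median of -0.00941 and 48.5% above 0 over all tested genes. Once counts were corrected for GC content and transcript length, 3 of 10 were above 0. It was 4 of 10 when the mouse number was also a block. DESeq2 and limma-voom also called none of the 10 at the study's cutoffs, and by the unadjusted rule they passed none and 1. DESeq2 gave no adjusted p for Sohlh1 and Rarg, so it could not call them. Their unadjusted p in DESeq2 was 0.182 and 0.333. The 95% intervals of the fold changes ran from 0.512 (lower bound of Sohlh1) to 1.27 (upper bound of Sohlh2). A 2-fold difference in either direction thus lay outside the interval of each gene. Most intervals were narrower than these limits, such as 0.811 to 1.13 for Dmrt1 and 0.825 to 1.05 for Aldh1a2. Those of Sohlh1 (0.512 to 1.13) and Rarg (0.575 to 1.21) reached lowest.

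**Figure D1:**
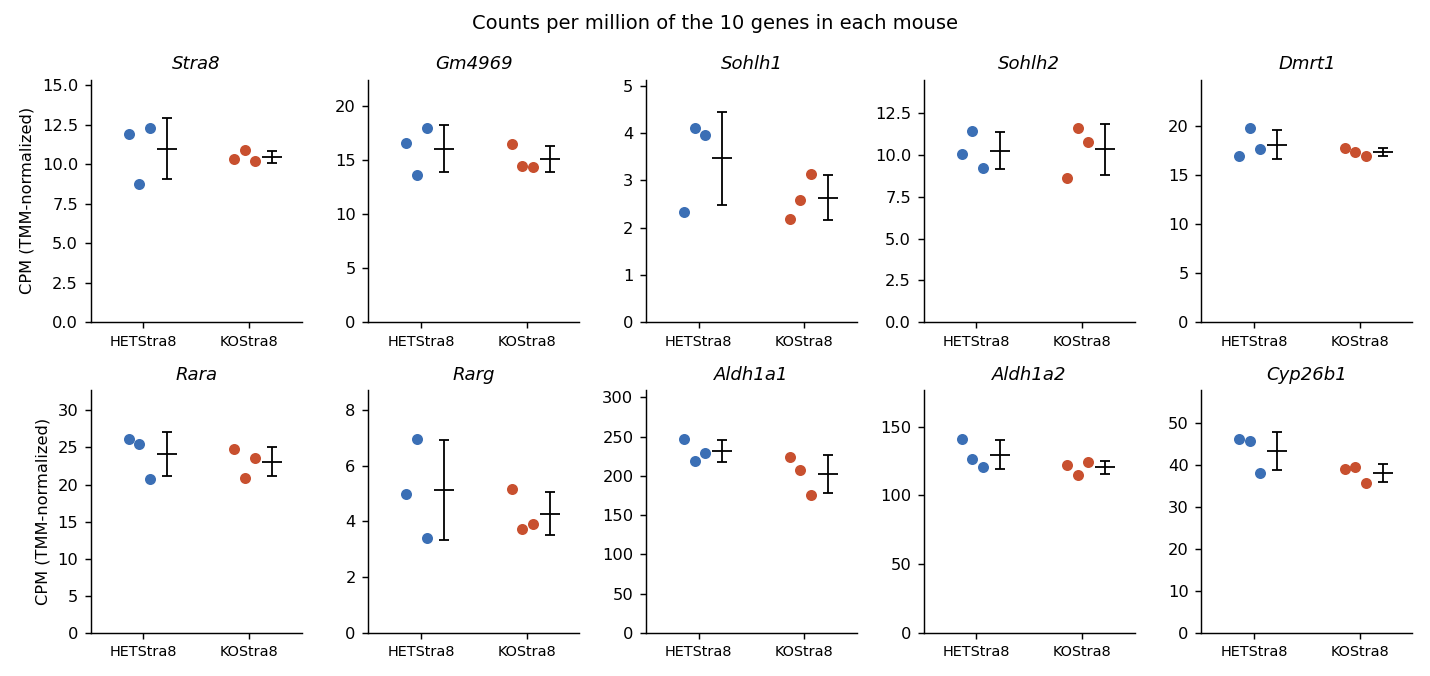
CPM of each of the 10 genes in each mouse, HETStra8 in blue and KOStra8 in red, with the mean ± SD of 3 mice beside the points and every axis starting at 0. The groups overlap in all 10 panels, and the points of Sohlh1 and Rarg, at 2.18 to 4.1 and 3.39 to 6.95 CPM, are the most scattered.

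Stra8 (ENSMUSG00000029848, chr6:34920163-34939344) was at 11.9, 8.74 and 12.3 CPM in HETStra8 mice 1 to 3, and at 10.3, 10.9 and 10.2 CPM in KOStra8 mice 1 to 3. The KOStra8 values lay inside the range of the HETStra8 values, and HETStra8 mouse 2 was the lowest of the 6. The means were 11 ± 1.94 CPM in HETStra8 and 10.5 ± 0.371 CPM in KOStra8, a log2 fold change of -0.0688 (SE 0.154, 95% interval -0.399 to 0.261, unadjusted p = 0.662, adjusted p = 0.888). This estimate rested on 294 to 409 counts per mouse, for which counting alone gives an error of 4.94% to 5.83%. Without HETStra8 mouse 3 the estimate was 0.0296, and without HETStra8 mouse 2 it was -0.209.

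Gm4969 (ENSMUSG00000085601, chr7:19099046-19118368), whose product MEIOSIN is the partner of STRA8, was at 16.5, 13.6 and 17.9 CPM in HETStra8 and at 16.5, 14.4 and 14.3 CPM in KOStra8. As for Stra8, the lowest value was that of HETStra8 mouse 2, and the groups overlapped. The log2 fold change was -0.0885 (SE 0.132, 95% interval -0.371 to 0.194, adjusted p = 0.821), and without HETStra8 mouse 3 it was 0.00882. Per length, Stra8 was 1.87, 1.67 and 1.78 times as abundant as Gm4969 in the HETStra8 mice and 1.63, 1.97 and 1.85 times in the KOStra8 mice. The ratios of the groups overlapped (difference of means 0.0405, exact two-sided permutation test, p = 0.8; adjusted p = 0.8 over 9 ratios computed; the smallest p that 3 mice against 3 allow is 0.1).

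Sohlh1 (ENSMUSG00000059625, chr2:25842995-25847248) had the largest fold change of the 10 and the fewest counts, 73 to 138 per mouse. Its level was 2.32, 4.1 and 3.96 CPM in HETStra8 and 2.18, 2.59 and 3.12 CPM in KOStra8. HETStra8 mouse 1 lay among the KOStra8 mice, and the other two HETStra8 mice lay above all of them. Its log2 fold change was -0.396 (SE 0.266, 95% interval -0.965 to 0.172, adjusted p = 0.561). That fold change was -0.615 without HETStra8 mouse 1 (unadjusted p = 0.0268) and -0.257 without HETStra8 mouse 2. Counting error alone was 8.51% to 11.7% per mouse here, beside a spread between mice of 28.6% in HETStra8 and 18.0% in KOStra8.

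Sohlh2 (ENSMUSG00000027794, chr3:55182028-55209957), which encodes the related factor, was at 10.1, 11.5 and 9.24 CPM in HETStra8 and at 8.62, 11.6 and 10.8 CPM in KOStra8. The lowest and the highest value were both from KOStra8 mice. Its log2 fold change was 0.00893 (SE 0.156, 95% interval -0.325 to 0.343, adjusted p = 0.987). Sohlh1 was 0.422, 0.656 and 0.786 times as abundant per length as Sohlh2 in HETStra8 and 0.463, 0.409 and 0.531 times in KOStra8, with overlapping groups (exact permutation p = 0.3, adjusted p = 0.787 over the 9 ratios).

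Dmrt1 (ENSMUSG00000024837, chr19:25505618-25604329) was among the genes with the smallest spread, at 17, 19.8 and 17.7 CPM in HETStra8 and 17.8, 17.4 and 16.9 CPM in KOStra8. All values except that of HETStra8 mouse 2 lay within 1 CPM of each other. The log2 fold change was -0.0619 (SE 0.112, 95% interval -0.301 to 0.177, adjusted p = 0.859), and it was 0.0452 once counts were corrected for GC content and transcript length.

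Of the receptors, Rara (ENSMUSG00000037992, chr11:98927818-98974942) was at 26.2, 25.4 and 20.7 CPM in HETStra8 and at 24.8, 20.9 and 23.6 CPM in KOStra8. HETStra8 mouse 3 and KOStra8 mouse 2 were both low, and the groups overlapped. For Rara the log2 fold change was -0.0593 (SE 0.119, 95% interval -0.314 to 0.195, adjusted p = 0.873), and with the GC and length correction it was 0.106. Rarg (ENSMUSG00000001288, chr15:102234938-102257517), the receptor known from spermatogonia, was at 5, 6.95 and 3.39 CPM in HETStra8 and 5.15, 3.73 and 3.92 CPM in KOStra8. HETStra8 mice held both its highest and its lowest value. Its log2 fold change was -0.26 (SE 0.251, 95% interval -0.798 to 0.278, adjusted p = 0.709), and without HETStra8 mouse 2 it was 0.0275. Rara was 3.57 to 5.95 times as abundant per length as Rarg over the 6 mice.

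Aldh1a1 (ENSMUSG00000053279, chr19:20492715-20643465), an enzyme that oxidizes retinaldehyde to retinoic acid and is known from Sertoli and Leydig cells, was at 247, 219 and 229 CPM in HETStra8 and at 224, 208 and 175 CPM in KOStra8. KOStra8 mouse 3 was the lowest, and KOStra8 mouse 1 lay above HETStra8 mouse 2. The means were 232 ± 14.1 and 202 ± 24.7 CPM, a log2 fold change of -0.196 (SE 0.0897, 95% interval -0.388 to -0.00402, unadjusted p = 0.046, adjusted p = 0.398). Without KOStra8 mouse 3 the fold change was -0.103 on the log2 scale. The unadjusted p was 0.281 without KOStra8 mouse 3, 0.123 without HETStra8 mouse 1, 0.0719 without KOStra8 mouse 2 and 0.0653 without HETStra8 mouse 3, and with DESeq2 it was 0.0507. With 6022 to 7806 counts per mouse its counting error was 1.13% to 1.29%, far below the spread between mice of 6.09% in HETStra8 and 12.2% in KOStra8. Some 3.06% of its 50-base stretches also occur in other genes.

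Markers of Sertoli cells moved in the same direction as Aldh1a1. All 15 had log2 fold changes below 0, with a median of -0.203, 4 of the 15 had an unadjusted p below 0.05 (beside 5.12% of all tested genes lower by that rule), none of the 15 was at 0, and their summed level was 1450 to 1711 CPM in HETStra8 and 1210 to 1367 CPM in KOStra8. The median was -0.126 without HETStra8 mouse 1 and -0.133 with the GC and length correction, each with 2 of the 15 above 0. In each of these fits 4 of the 15 had that p, beside 3.42% and 3.51% of all tested genes lower. Without KOStra8 mouse 3, 1 of the 15 had such a p, beside 2.27% lower. The 10 Leydig cell markers also had log2 fold changes below 0, with a median of -0.289, 1 at an unadjusted p below 0.05 and a summed level of 631 to 957 CPM in HETStra8 and 532 to 681 CPM in KOStra8. Without HETStra8 mouse 1 the Leydig median was -0.0178, with 5 of 10 above 0 and none at that p. With DESeq2 3 of the 10 were lower at that p, beside 2.89% of all tested genes, and the smallest adjusted p was 0.00702. With the mouse number as a block 5 of the 10 were lower at that p, beside 4.67%, and the smallest adjusted p was 0.0625. For each 1000 CPM of Sertoli markers there were 144, 151 and 157 CPM of Aldh1a1 in HETStra8 and 168, 152 and 145 CPM in KOStra8. On this scale the KOStra8 mean was higher by 4.01 (exact permutation p = 0.6, adjusted p = 0.787 over the 9 ratios). In whole testis, fewer cells of a type and less RNA per cell cannot be told apart.

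Aldh1a2 (ENSMUSG00000013584, chr9:71215789-71296243), the retinaldehyde dehydrogenase known from germ cells, was at 141, 127 and 121 CPM in HETStra8 and at 122, 115 and 124 CPM in KOStra8. HETStra8 mouse 1 was the highest, and the other 5 mice were interleaved. On the log2 scale KOStra8 differed by -0.105 (SE 0.0805, 95% interval -0.278 to 0.0673, adjusted p = 0.623), which was -0.0397 without HETStra8 mouse 1 and -0.0367 with the GC and length correction. Cyp26b1 (ENSMUSG00000063415, chr6:84571414-84593908), which degrades retinoic acid, was at 46.3, 45.7 and 38.1 CPM in HETStra8 and at 39, 39.7 and 35.7 CPM in KOStra8. HETStra8 mouse 3 fell among the KOStra8 mice. Its log2 fold change was -0.185 (SE 0.1, 95% interval -0.4 to 0.0299, unadjusted p = 0.0861, adjusted p = 0.469), and with the GC and length correction it was -0.0394. Set against each other, Aldh1a2 was 7.21, 6.56 and 7.48 times as abundant per length as Cyp26b1 in HETStra8 and 7.42, 6.84 and 8.2 times in KOStra8, and the groups overlapped (exact permutation p = 0.5, adjusted p = 0.787 over the 9 ratios).

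**Figure D2:**
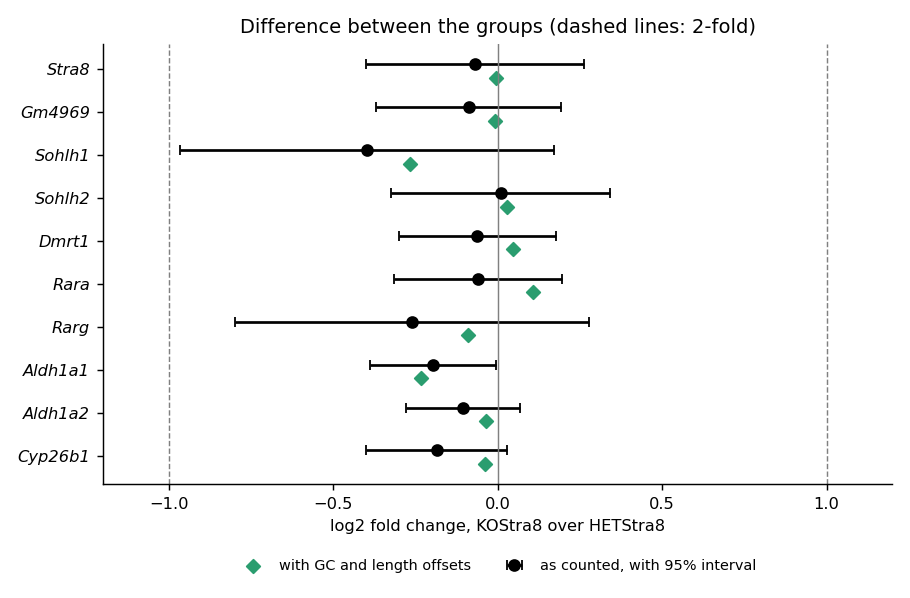
Log2 fold change of the 10 genes, KOStra8 over HETStra8, as counted (black, bars are 95% intervals) and with offsets for GC content and transcript length (green diamonds, no interval drawn), with dashed lines at a 2-fold change. Every interval lies between the dashed lines, and only that of Aldh1a1 (-0.388 to -0.00402) leaves out 0.

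Levels were set in order per kilobase of merged exons, since they differ in length. Aldh1a2 came first with 55.2 ± 3.93 CPM per kb over the 6 mice (SD), then Aldh1a1 with 43.9 ± 4.9. The range of Aldh1a2 lay just above that of Aldh1a1 (lowest 50.7 against highest 50 CPM per kb), both lay above every other gene of the set in every mouse, and among all tested genes they stood at percentiles 94.4 and 92.9. Cyp26b1 followed at 7.61 ± 0.798, Dmrt1 at 6.85 ± 0.413, Stra8 at 5.94 ± 0.711, Rara at 5.41 ± 0.534, Sohlh2 at 4.36 ± 0.512 and Gm4969 at 3.31 ± 0.355. Within this middle group the ranges of neighbours in the order overlapped. Sohlh1 at 2.36 ± 0.644 CPM per kb overlapped Gm4969 above it, and Rarg came last at 1.1 ± 0.309, below Sohlh1 in range. With the longest transcript as the length, 4 genes changed rank: Aldh1a1 (92) came before Aldh1a2 (55.2), and Rara (6.97) before Stra8 (5.94).

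**Figure D3:**
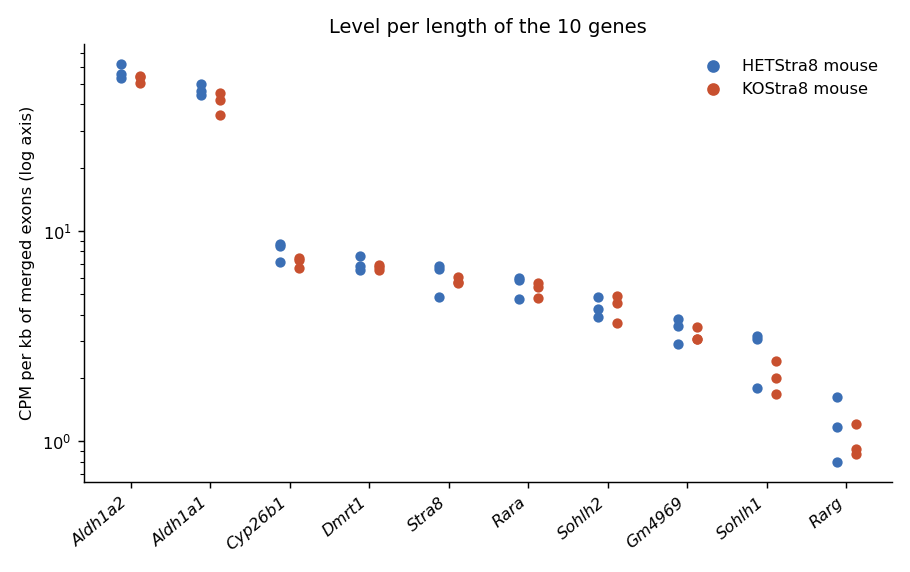
Level of the 10 genes in CPM per kb of merged exons on a log axis, ordered by the mean over the 6 mice, HETStra8 in blue and KOStra8 in red. Aldh1a2 and Aldh1a1 stand above the other 8 genes, whose means lie between 1.1 and 7.61 CPM per kb.

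The 3 genes whose log2 CPM followed that of Stra8 most closely over the 6 mice were Slc7a6os (Pearson r = 0.987), Trpm1 (r = 0.976) and Spdl1 (r = 0.975), of 13123 genes with a mean log2 CPM of at least 2. Spdl1, which encodes a kinetochore protein, was at 14.7, 10.1 and 15 CPM in HETStra8 and at 13, 12.6 and 12.3 CPM in KOStra8. As with Stra8, HETStra8 mouse 2 was the lowest. These values are a description over 6 libraries, whose depth and composition all genes share.

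The wider retinoic acid pathway was read from a list of 33 other genes, of which 30 were tested. By the unadjusted rule 1 was higher (Ncor1) and 3 were lower, Stra6 and Rxrb among them, the median log2 fold change was -0.0796, and the smallest adjusted p was 0.285. The count of 4 is 13.3% of the list, beside 12.3% of all tested genes. It was 2 without HETStra8 mouse 1, 7 without HETStra8 mouse 3 (where 19.8% of all tested genes passed that rule), 1 without KOStra8 mouse 1, 2 without KOStra8 mouse 2, 1 without KOStra8 mouse 3 and 2 with the GC and length correction. In the other fits named, in that order, 8.64%, 9.31%, 10.7%, 6.56% and 7.58% of all tested genes passed. Of the 19 tested genes for retinoid supply and binding, 4 had a log2 fold change above 0, beside 48.5% of all tested genes. That number was 8 with the GC and length correction, 10 with the replicate block added to it, and 6 to 9 with each mouse left out.

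Stra6, the cell surface receptor that takes up retinol, was at 6.71, 5.17 and 5.49 CPM in HETStra8 and at 3.55, 4.7 and 3.23 CPM in KOStra8. Every KOStra8 mouse was below every HETStra8 mouse. The log2 fold change was -0.601 (SE 0.207, 95% interval -1.04 to -0.158, unadjusted p = 0.0113, adjusted p = 0.285), and the unadjusted p was 0.0562 without KOStra8 mouse 3. For each 1000 CPM of Sertoli markers Stra6 was at 3.92, 3.57 and 3.77 CPM in HETStra8 and 2.66, 3.44 and 2.67 CPM in KOStra8, again without overlap (exact permutation p = 0.1, the smallest this design allows; adjusted p = 0.787 over the 9 ratios).

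Other enzymes of retinoid metabolism were measured without passing either rule. Rdh10, which oxidizes retinol to retinaldehyde, had a log2 fold change of -0.0359 (SE 0.137), Lrat, which stores retinol as esters, -0.0496 (SE 0.158), and Aldh1a3, the third retinaldehyde dehydrogenase, -0.0835 (SE 0.268). Adh7 and Rdh14 were higher in every KOStra8 mouse, with log2 fold changes of 0.348 (SE 0.209) and 0.234 (SE 0.145) and adjusted p of 0.517 and 0.527. Cyp26a1, related to Cyp26b1, was low, at 0.596 CPM in HETStra8 and 0.464 CPM in KOStra8. Cyp26c1 had 2 counts and Crabp2 17 counts over all 6 mice, and Dhrs9 had none.

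Among receptors and cofactors, Ncor1, a corepressor of nuclear receptors, was at 136, 162 and 173 CPM in HETStra8 and at 195, 169 and 189 CPM in KOStra8 (log2 fold change 0.232, unadjusted p = 0.0262, adjusted p = 0.349). KOStra8 mouse 2 lay below HETStra8 mouse 3. The retinoid X receptors Rxrb and Rxra were lower in every KOStra8 mouse, with log2 fold changes of -0.258 (SE 0.109, adjusted p = 0.367) and -0.182 (SE 0.0934, adjusted p = 0.441). With the GC and length correction that of Rxrb was -0.0911 and that of Rxra -0.0442. Rarb, the remaining retinoic acid receptor, was at 0.633 CPM in HETStra8 and 0.94 CPM in KOStra8, with a log2 fold change of 0.582 and a wide error (SE 0.542).

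**Figure D4:**
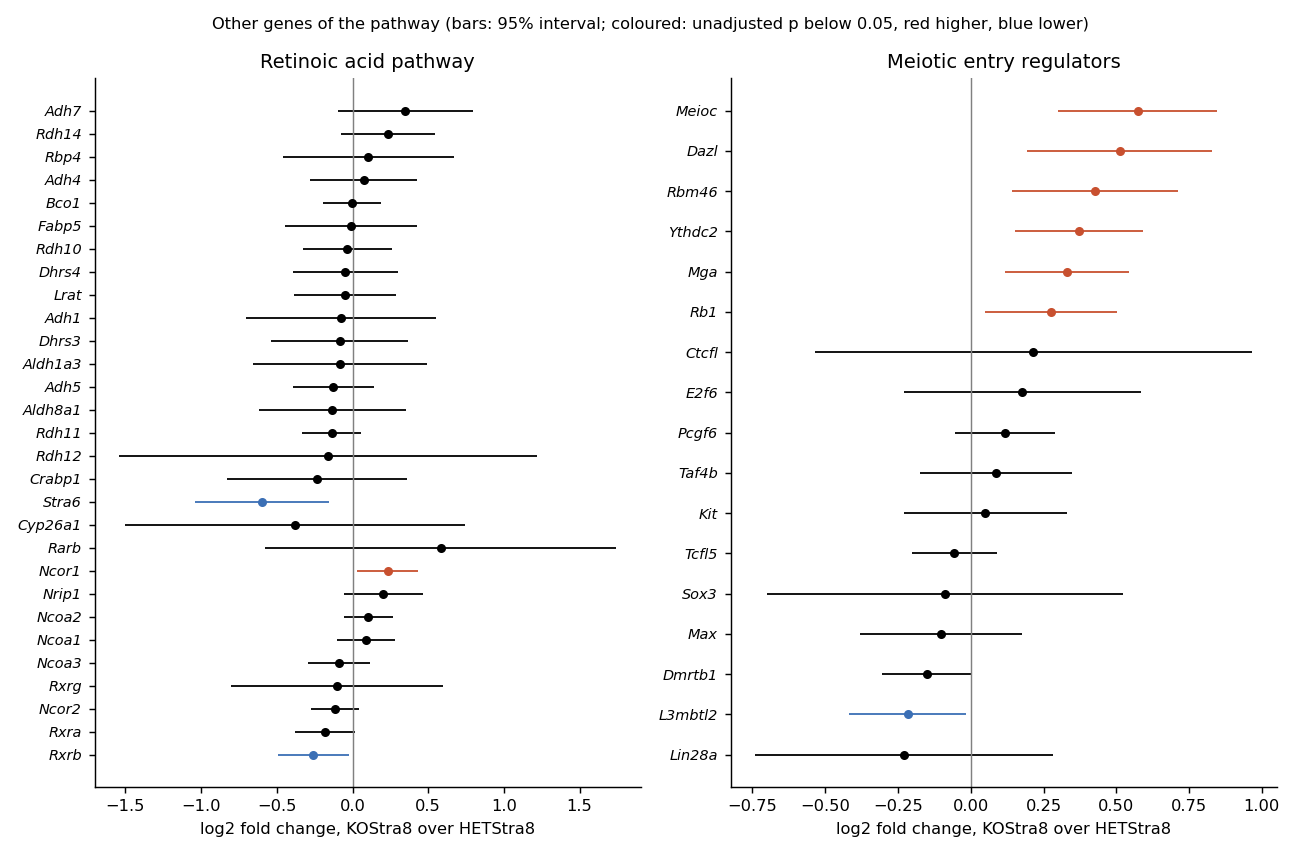
Log2 fold changes, KOStra8 over HETStra8, with 95% intervals, of 29 of the 30 tested genes of the retinoic acid pathway (left) and the 17 tested regulators of meiotic entry (right). Genes with an unadjusted p below 0.05 are coloured red where higher and blue where lower: 1 and 2 on the left, 6 and 1 on the right.

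Other regulators of meiotic entry were read from a list of 19 genes, of which 17 were tested. By the unadjusted rule 6 were higher in KOStra8 (Meioc, Dazl, Rbm46, Ythdc2, Mga and Rb1) and 1 was lower (L3mbtl2), the median log2 fold change was 0.118, and every KOStra8 mouse lay above every HETStra8 mouse for 7 of 17. Over all tested genes the same rules gave 7.13% higher, 5.12% lower and 9.33% entirely above. None passed an adjusted p of 0.01 in edgeR or limma-voom (smallest adjusted p 0.135 and 0.0966). DESeq2 gave 2, Meioc (adjusted p = 7.30e-04) and Dazl (adjusted p = 0.00981), both under 2-fold. Without a filter on low counts edgeR gave 3, and without HETStra8 mouse 3 it gave 3, in both cases Meioc, Dazl and Rbm46. Zglp1 had no count in any mouse, and Nanos2 had 4 counts, all in KOStra8 mouse 3.

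Meioc, whose product is needed for an extended meiotic prophase, was at 109, 112 and 155 CPM in HETStra8 and at 191, 175 and 193 CPM in KOStra8. HETStra8 mouse 3 stood between the other two HETStra8 mice and the KOStra8 mice. The log2 fold change was 0.573 (SE 0.124, 95% interval 0.299 to 0.846, unadjusted p = 7.98e-04, adjusted p = 0.135). Ythdc2, the helicase that works in a complex with MEIOC, was at 32.3, 27.9 and 34.9 CPM in HETStra8 and at 43.3, 39.4 and 40.5 CPM in KOStra8 (log2 fold change 0.373, SE 0.103, adjusted p = 0.193). Rbm46, another partner of the complex, was at 35, 36.6 and 50.2 CPM in HETStra8 and at 51.1, 52.2 and 60.3 CPM in KOStra8 (log2 fold change 0.426, SE 0.131, adjusted p = 0.248). In each of the 3 the groups did not overlap, and HETStra8 mouse 3 was the nearest of its group to the KOStra8 mice.

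Dazl, an RNA-binding protein that gives germ cells the competence to respond to retinoic acid, was at 74.2, 85.9 and 117 CPM in HETStra8 and at 131, 130 and 133 CPM in KOStra8. The KOStra8 mice were close to each other, and the HETStra8 mice were spread (log2 fold change 0.512, SE 0.142, adjusted p = 0.231). Mga, a subunit of the repressor complex that holds back germ cell and meiotic genes, was higher by 0.33 on the log2 scale (SE 0.0996, 95% interval 0.117 to 0.543, adjusted p = 0.231). L3mbtl2, another subunit of that complex, had a difference of -0.216 (SE 0.0938, adjusted p = 0.379), while Max, E2f6 and Pcgf6 of the same complex had -0.103, 0.177 and 0.118, with unadjusted p of 0.441, 0.367 and 0.162.

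The differences of the 7 regulators that passed the unadjusted rule were smaller once counts were corrected for GC content and length. Fold changes of all genes were related to GC content (Spearman rho -0.46 over 21457 genes, a description, since genes do not replicate each other). With that correction 2 of the 17 regulators had an unadjusted p below 0.05, both higher, beside 4.07% of all tested genes higher. These were Meioc, at 0.293 on the log2 scale (unadjusted p = 0.00142, adjusted p = 0.268), and Dazl, at 0.192 (unadjusted p = 0.0238, adjusted p = 0.573). Ythdc2 was then at 0.176, Rbm46 at 0.146, Mga at 0.0728 and Rb1 at 0.0848, with adjusted p between 0.715 for Ythdc2 and 0.9 for Rb1. The members' median log2 fold change was then -0.0227, against -0.00143 over all genes.

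**Figure D5:**
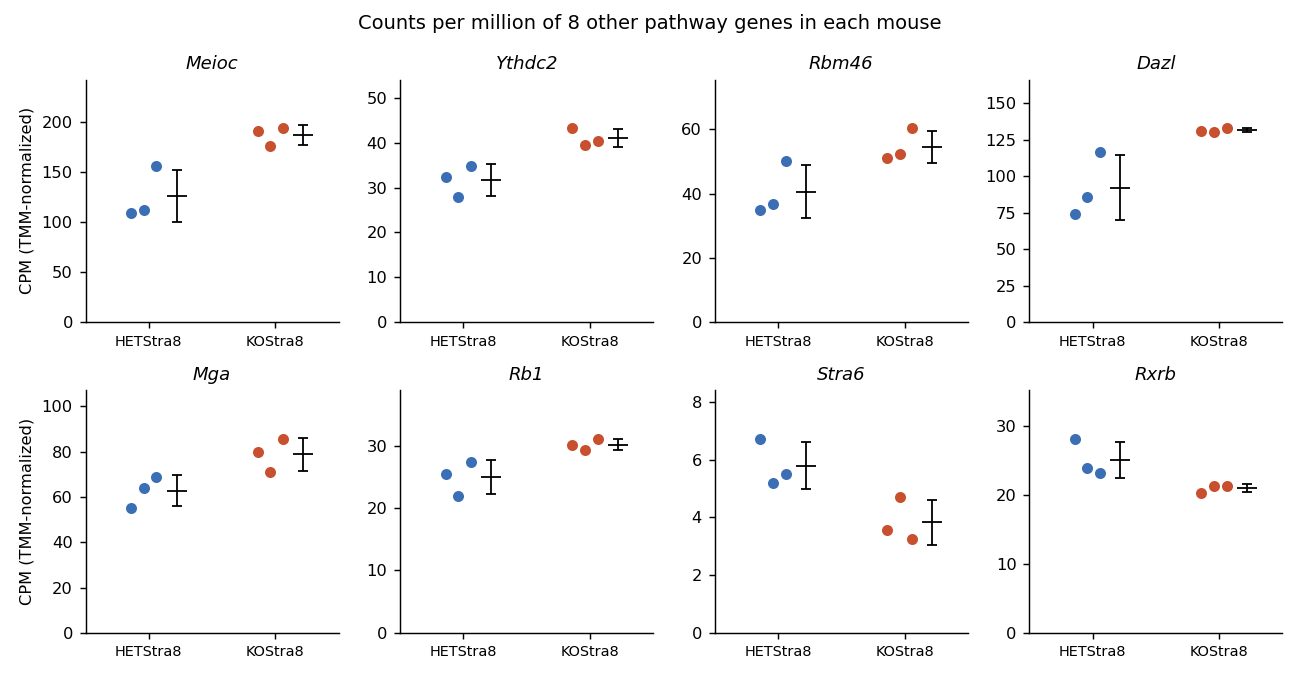
CPM of 6 regulators of meiotic entry, the retinol receptor Stra6 and the retinoid X receptor Rxrb in each mouse, with the mean ± SD of 3 mice beside the points and axes starting at 0. The 8 genes drawn are among those with an unadjusted p below 0.05, and the groups do not overlap in any of the 8 panels. Over all tested genes 9.33% had KOStra8 entirely above and 8.43% entirely below. HETStra8 mouse 3 (the rightmost blue point) is the HETStra8 mouse nearest to KOStra8 for Meioc, Rbm46, Dazl, Mga, Ythdc2 and Rb1.

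Genes of the meiotic prophase programme, many of which STRA8 and MEIOSIN are known to switch on, were read from a list of 34, all tested. By the unadjusted rule 7 were higher and none was lower, beside 7.13% of all tested genes higher and 5.12% lower, with a median log2 fold change of 0.0819 and a smallest adjusted p of 0.0692. The 3 with the smallest p were Ankrd31, needed for double-strand break formation (log2 fold change 0.658, SE 0.118, adjusted p = 0.0692), the helicase Hfm1 (0.491, SE 0.118, adjusted p = 0.15) and the telomere attachment protein Terb1 (0.367, SE 0.102, adjusted p = 0.193). Ankrd31 was at 42.6, 47.6 and 61.7 CPM in HETStra8 and at 83.2, 78.9 and 77.6 CPM in KOStra8, without overlap. With the GC and length correction Ankrd31 was at 0.461 (adjusted p = 0.0992), Hfm1 at 0.22 (adjusted p = 0.544) and Terb1 at 0.126 (adjusted p = 0.771). In that fit 5 of the 34 were higher by the unadjusted rule, beside 4.07% of all tested genes, and the median was 0.0465. Without HETStra8 mouse 3, 14 of the 34 had an unadjusted p below 0.05, 13 of them higher, where 19.8% of all tested genes did. Without that mouse 8 of the 34 had an adjusted p below 0.01. The study's cutoffs in full were passed by 2, Sycp2 (1.29) and Tex15 (1.38), beside 44 of the 22091 genes tested in that fit. Both are named here after their values were seen, and the study lists qPCR primers for both. With all 6 mice Sycp2 had a log2 fold change of 0.957 and Tex15 1.03, each with an adjusted p of 0.292. With the GC and length correction these were 0.604 and 0.675. DESeq2 gave 2 at an adjusted p below 0.01, Ankrd31 (6.52e-05) and Hfm1 (0.00906).

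Markers of germ cell stages were read beside these genes, and their part in the results was not tested. Those of leptotene and zygotene spermatocytes, which include Meioc, had a summed level of 343, 383 and 530 CPM in HETStra8 and 541, 536 and 596 CPM in KOStra8, with 8 of 10 log2 fold changes above 0, a median of 0.295 and 2 of 10 higher at an unadjusted p below 0.05, beside 7.13% of all tested genes. With the GC and length correction the median was 0.0607 and 6 of 10 were above 0. Here too HETStra8 mouse 3 was next to the KOStra8 mice. Most of these markers are also in the prophase list, and Meioc is in the entry list, so the 3 lists are not separate evidence. Markers of differentiating spermatogonia, which include Stra8, Sohlh1 and Sohlh2, had a summed level of 681 to 777 CPM in HETStra8 and 630 to 687 CPM in KOStra8, with none of 10 at an unadjusted p below 0.05. Most of that sum was a single gene, Dmrtb1, also in the meiotic entry list, at 672, 624 and 582 CPM in HETStra8 and 534, 586 and 572 CPM in KOStra8. Markers of undifferentiated spermatogonia lay at 71 to 78.5 CPM in HETStra8 and 72.1 to 77.9 CPM in KOStra8, and none of the 10 tested passed that rule.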

How the data were processed

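For each mouse the authors deposited the raw counts of reads on 55536 Ensembl genes, from poly(A)+ RNA in directional paired-end libraries. The submitters' processing notes name FastQC, Trimmomatic, STAR 2.7.1a, Picard 2.20.4, StringTie 2.0.4, featureCounts 1.6.0, HTSeq and ChIPseeker and the builds mm10 and GRCm38, without their order. The strand setting of the counting was not given in the sources used here. Symbols, positions and lengths came from GENCODE mouse release 21 (GRCm38), and no exon of the 10 genes overlaps an exon of another gene.

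Genes were kept by filterByExpr of edgeR 4.0.16 (R 4.3.3) and normalized by TMM. Genotype alone entered the robust quasi-likelihood model, its F test was two-sided, and p-values were adjusted by Benjamini-Hochberg over all genes kept. Library totals of 28875108 to 36526695 counts set the counting error. Intervals are 95% intervals of that fit. Ratios between genes within a mouse, chosen after the values were seen, were tested by exact permutation. Alternatives were other size factors and filters, the mouse number as a block, GC and length offsets, DESeq2 1.42.0, limma-voom 3.58.1 and leaving out each mouse. In counts simulated from these libraries, 200 genes were changed by a log2 fold of 1.5. Of these, edgeR recovered 88.0% at an adjusted p below 0.01, with 6 false calls. Recovery of smaller changes, such as those of the genes examined here, was not tested.

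The members, gene lists and tests were chosen with earlier results of these data known. Named in the text are the 10 genes, Sel1l, genes of the retinoic acid and meiotic entry lists, up to 3 genes of smallest p from the prophase and each marker list, and the 3 genes most like Stra8. A gene of the retinoic acid list is counted in that list but not reported here by itself. No pair of libraries agreed within sampling noise. The mice were separate animals.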

Additional observations from a re-analysis of the deposited data

How the results depend on the processing

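No alternative called any of the 10 genes at the study's cutoffs, though DESeq2 gave no adjusted p for Sohlh1 and Rarg. The count at an unadjusted p below 0.05, 1 as reported, was 0 with library totals, 0 with DESeq2 and 0 to 1 with each mouse left out, the gene being Aldh1a1 as reported, Sohlh1 without HETStra8 mouse 1 and Cyp26b1 without HETStra8 mouse 3. For the retinoic acid list (4) it was 2 with GC and length offsets, 2 with the replicate block and those offsets, and 1 to 7 with each mouse left out; for meiotic entry regulators (7) it was 2 and 2 with the same offsets; for prophase genes (7) it was 5 to 14 with each mouse left out, the highest without HETStra8 mouse 3. The share of all tested genes with an unadjusted p below 0.05 moved as well. It was 12.3% as reported, 7.58% with the offsets, 7.30% with block and offsets, and 6.56% to 19.8% with each mouse left out. Of 150 alternative fold changes of the 10 genes, 134 kept their sign and 16 did not, none of these above 0.106 in size on the log2 scale. Those were Stra8 with the replicate block and offsets (0.00876), Sohlh2 with limma-voom (-0.00322), Dmrt1 with offsets (0.0452) and with block and offsets (0.0495), Rara likewise (0.106 and 0.104), and fits without 1 mouse, whose ranges were -0.209 to 0.0296 for Stra8, -0.193 to 0.00882 for Gm4969, -0.0743 to 0.132 for Sohlh2, -0.109 to 0.00644 for Dmrt1, -0.148 to 0.0131 for Rara and -0.474 to 0.0275 for Rarg. By length of the longest transcript 4 genes changed rank. The cause was not tested. Mouse numbers are shared by the groups. Deviations of same-numbered mice from their group means had correlations of -0.0601, -0.0525 and 0.108, and not every mouse correlated best with its own number. With 3 mice per group such correlations cannot settle whether the numbers pair the mice, and litters were not given. With the replicate block 0 of the 10 genes were called and 1 had an unadjusted p below 0.05. Depth limits Sohlh1 and Rarg most, with as few as 73 and 108 counts in a mouse.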

Other observations

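Markers of other testicular cells gave values beside which the retinoid genes of somatic cells can be read. Of the 10 macrophage markers, 4 had an unadjusted p below 0.05 and were lower in KOStra8, beside 5.12% of all tested genes lower by that rule, and the 3 with the smallest p were C1qc (log2 fold change -0.663, adjusted p = 0.257), Cx3cr1 (-0.771, adjusted p = 0.302) and C1qb (-0.35, adjusted p = 0.376). Their summed level was 89.2 to 101.5 CPM in HETStra8 and 73.2 to 102 CPM in KOStra8, so the sums overlapped. That count was 2 with GC and length offsets, 2 without HETStra8 mouse 1, 1 without KOStra8 mouse 3 and 6 without HETStra8 mouse 3. In these fits, in that order, 3.51%, 3.42%, 2.27% and 8.81% of all tested genes were lower by that rule. Among Sertoli cell markers the smallest p-values were those of Amhr2, the receptor of anti-Müllerian hormone (-0.29, adjusted p = 0.166), Clu (-0.278, adjusted p = 0.266) and Gata4 (-0.286, adjusted p = 0.338). Star, which brings cholesterol into mitochondria for steroid synthesis, was the Leydig cell marker with the smallest p, at 68.4 CPM in HETStra8 and 43.4 CPM in KOStra8 (-0.653, adjusted p = 0.326). Mybl1, a transcription factor of pachytene spermatocytes, was at 69.2 CPM in HETStra8 and 94.6 CPM in KOStra8 (0.45, adjusted p = 0.112). It was the 1 gene of the 10 pachytene and diplotene markers at an unadjusted p below 0.05, and with GC and length offsets none of the 10 was, the smallest adjusted p then being 0.815. The smallest adjusted p of those 10 was 0.00472 with DESeq2. The other values come from edgeR.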
